A study of Mus musculus with 384 samples.

Results

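Intergenic windows 1 to 10 kb from a transcription start site (TSS) are accessible stretches whose centre lies outside every annotated transcript. They were taken by position alone from a list of 50000 windows of 500 bp, each centred on a peak summit. A window was a member when its centre lay in no annotated transcript and over 1 kb and up to 10 kb from the nearest annotated TSS. The rule places the centre only, and 68 members touch a transcript. This gave 4431 members, or 8.86% of the list (exact 95% binomial interval 8.61% to 9.11%) and 24.8% of the 17853 intergenic windows more than 1 kb from a TSS. Pi-ATAC, which pairs the assay of transposase-accessible chromatin with antibody staining of the same cell, had been run on cells of 1 breast tumor from an MMTV-PyMT mouse taken at 3 months of age. In this model the promoter of the mouse mammary tumor virus drives the polyoma middle T oncogene in mammary epithelium. All wells, 96 on each of 4 plates, held cells stained with antibodies to EpCAM, which marks epithelium, and CD45, which marks leukocytes, and they form 1 group with no treatment and no control tissue. The list pools them without a score, a count or a stain, so neither depth nor cell type can be read per window, and EpCAM+ and CD45+ cells were not compared here.

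Regulatory DNA outside promoters holds enhancers, which bind sequence-specific factors, lose nucleosomes and act on genes at a distance. Sequence just upstream of a gene can hold enhancers, insulator sites bound by CTCF, and start sites that the annotation lacks. Factors of the AP-1 family (Jun and Fos proteins) are known for binding enhancers in many cell types, PU.1 and RUNX factors in blood cells, and SP and Kruppel-like factors (KLF) at CpG-rich promoters.

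The sequences below show what such windows hold. Each is 150 bases from the mm9 plus strand, written 5′ to 3′, with the copies of the named word in capitals. The first set shows, for each word, the member near a listed gene whose copy lies closest to the window centre, and all of it is intergenic.
AP-1 near Vwf, chr6:125490302-125490451: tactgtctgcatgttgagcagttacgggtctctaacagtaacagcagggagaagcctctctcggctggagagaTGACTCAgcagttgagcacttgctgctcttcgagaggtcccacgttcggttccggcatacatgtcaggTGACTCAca
RUNX near Fosb, chr7:19902088-19902237: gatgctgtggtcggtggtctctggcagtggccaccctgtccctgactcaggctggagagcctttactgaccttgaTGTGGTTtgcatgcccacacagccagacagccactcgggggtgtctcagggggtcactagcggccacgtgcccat
PU.1 near Actb, chr5:143670875-143671024: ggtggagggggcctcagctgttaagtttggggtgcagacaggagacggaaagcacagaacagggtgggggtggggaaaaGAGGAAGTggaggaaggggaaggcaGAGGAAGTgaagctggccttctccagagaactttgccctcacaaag
NF-kB near Junb, chr8:87500314-87500463: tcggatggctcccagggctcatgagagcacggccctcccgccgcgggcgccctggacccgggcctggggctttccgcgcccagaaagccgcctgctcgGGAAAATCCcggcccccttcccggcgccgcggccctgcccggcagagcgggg
CTCF near Myod1, chr7:53626441-53626590: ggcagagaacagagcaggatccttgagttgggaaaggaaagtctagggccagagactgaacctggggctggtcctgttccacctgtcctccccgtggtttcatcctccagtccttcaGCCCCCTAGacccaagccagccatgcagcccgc
C/EBP near Cd22, chr7:31672844-31672993: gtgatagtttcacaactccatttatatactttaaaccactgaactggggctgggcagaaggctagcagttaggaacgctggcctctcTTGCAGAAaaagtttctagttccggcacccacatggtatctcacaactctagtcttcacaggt
TEAD near Cldn4, chr5:135420290-135420439: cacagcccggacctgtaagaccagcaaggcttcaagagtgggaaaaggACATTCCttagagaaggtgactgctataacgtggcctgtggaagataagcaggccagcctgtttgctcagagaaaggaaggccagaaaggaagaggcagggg
GATA near Actb, chr5:143669788-143669937: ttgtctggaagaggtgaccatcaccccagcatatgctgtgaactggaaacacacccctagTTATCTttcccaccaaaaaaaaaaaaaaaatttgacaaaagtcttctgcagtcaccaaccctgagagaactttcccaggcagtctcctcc

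The AP-1 copy near Vwf, the gene of von Willebrand factor of endothelium, lay 1.5 bp from the centre of a window 6415 bp upstream of the TSS, and a second copy is in the same stretch. The RUNX copy upstream of Fosb, itself an AP-1 gene, lay 3.5 bp from its window's centre at 6769 bp, and the same stretch holds a copy of the word of hypoxia-inducible factors (HIF), 68 bp from the centre. The window 2517 bp upstream of Actb, the gene of cytoplasmic actin, carries 2 copies of the PU.1 word. Cldn4, a tight junction gene of epithelium, has its TEAD copy in a downstream window, and Cd22, a B cell receptor gene, its C/EBP copy in an upstream one. Repeats were not masked, so any of these copies may lie in a dispersed repeat rather than in sequence particular to the gene.

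A further set shows members of genes that had several, chosen after the values were seen.
AP-1 near Zfp36, chr7:29166136-29166285: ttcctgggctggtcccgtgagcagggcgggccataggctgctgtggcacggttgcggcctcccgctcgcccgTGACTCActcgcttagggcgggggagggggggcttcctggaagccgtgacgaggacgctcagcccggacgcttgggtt
NF-kB near Zfp36, chr7:29166966-29167115: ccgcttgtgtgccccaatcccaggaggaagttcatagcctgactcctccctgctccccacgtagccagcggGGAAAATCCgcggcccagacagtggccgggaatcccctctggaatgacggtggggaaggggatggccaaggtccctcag
AP-1 near Csrnp1, chr9:119892165-119892314: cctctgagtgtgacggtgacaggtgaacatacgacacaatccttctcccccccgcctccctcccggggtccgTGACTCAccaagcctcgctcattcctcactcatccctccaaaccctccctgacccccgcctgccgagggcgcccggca
PU.1 near Bach1, chr16:87689435-87689584: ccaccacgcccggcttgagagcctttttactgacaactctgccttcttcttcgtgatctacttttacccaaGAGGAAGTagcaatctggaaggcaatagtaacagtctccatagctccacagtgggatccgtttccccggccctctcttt

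At Zfp36 the NF-kB copy shown lies in the overlap of a pair of windows, so both count as holding it although it is 1 site. The same is true of the PU.1 copy in the overlapping pair upstream of Bach1.

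Members lay more densely in their sequence than intergenic windows farther out. Per Mb of sequence other than N, there were 17.4 members (exact 95% Poisson interval 16.9 to 18.0, over 254.2 Mb). Intergenic sequence 10 to 50 kb from a TSS held 14.4 windows per Mb, and that over 50 kb held 8.63. Sequence where reads do not map uniquely was not taken out of these lengths, and its part in the differences was not tested. Intragenic windows at the same 1 to 10 kb numbered 24.5 per Mb, and promoter windows, centred within 1 kb of a TSS, 125.4 per Mb. These intervals cover counting error only.

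The density fell off within the first kb of the range and was then nearly level. It was 24.3 members per Mb at 1 to 1.5 kb, 20.5 at 1.5 to 2 kb, and between 14.0 and 18.9 in each 500-bp step beyond. The higher values near the TSS were on the upstream side. At 1 to 2 kb, upstream sequence held 25.2 members per Mb (interval 23.2 to 27.3) and downstream sequence 14.6 (12.2 to 17.5). From 2 to 10 kb the steps of 1 kb ranged over 15.2 to 18.9 upstream and 14.0 to 16.5 downstream. The limits of the rule cut a continuous distribution, with 49 members at 1001 to 1050 bp beside 55 intergenic windows at 951 to 1000 bp, and 17 members at 9951 to 10000 bp beside 26 windows at 10001 to 10050 bp.

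**Figure D1:**
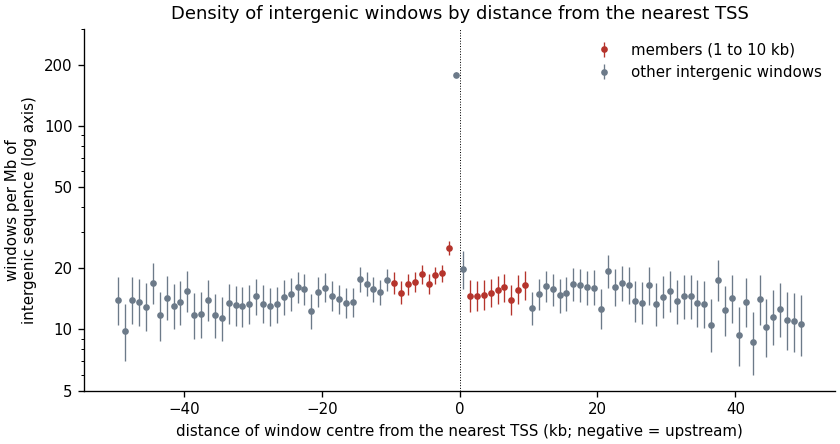
Intergenic windows per Mb of intergenic sequence (log axis) in 1-kb steps of signed distance from the nearest TSS, with members (1 to 10 kb) in red, other intergenic windows in grey and bars for exact 95% Poisson intervals. The members step at 1 to 2 kb upstream stands at 25.2 per Mb, and the first kb upstream, which is outside the rule, at 178.7.

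The density of members was higher at genes with a promoter window, although 59.0% of members were nearest to a gene without one. A gene had a promoter window when a window of the list was centred within 1 kb of one of its TSSs. Peaks that the list did not keep are not counted, so a gene without one can still have an accessible promoter. Genes with a promoter window had 1817 members at 31.8 per Mb, against 2614 members at 13.3 per Mb for genes without one. The log2 ratio of the densities was 1.18 ± 0.08 (SE, quasi-Poisson fit over 20 chromosomes, p = 6.7e-12), and the density was higher at genes with a promoter window on 20 of 20 chromosomes. With the nearest gene limited to protein-coding genes the densities were 31.9 and 14.6 per Mb, a log2 ratio of 1.10 ± 0.09.

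The side of the TSS gave a smaller difference. Upstream sequence held 3135 members (70.8%) at 18.5 per Mb and downstream sequence 1296 at 15.2 per Mb, a log2 ratio of 0.25 ± 0.05 (SE, p = 3.6e-05, quasi-Poisson fit, higher on 17 of 20 chromosomes). With only protein-coding and long intergenic non-coding RNA (lincRNA) transcripts, the upstream over downstream density ratio was 0.10 on the log2 scale (p = 0.19) and did not pass, and with the inner distance at 2 kb it was 0.16 and passed. Downstream sequence that is within 10 kb of a TSS and outside transcripts exists only behind short transcripts. The direction turned with the presence of a promoter window. At genes with a promoter window, upstream sequence held 30.6 members per Mb and downstream sequence 36.4, a log2 ratio of -0.25 ± 0.11 (p = 0.037). At genes without one, the values were 14.0 upstream and 12.0 downstream, a log2 ratio of 0.22 ± 0.05 (p = 0.00059). These splits were added after the data were seen, and the difference between them was not tested. Genes with a promoter window, where members were denser, had 45.7 of 169.2 Mb upstream and 11.4 of 85.0 Mb downstream. The log2 ratio of 0.25 over all genes is above that of both splits and also holds this difference in sequence. Limited to protein-coding nearest genes, upstream over downstream was 0.14 ± 0.07 on the log2 scale (p = 0.084), which does not pass.

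The type of the nearest gene divided the members further, as a description. Protein-coding genes were nearest to 3055 members, at 20.6 per Mb (interval 19.9 to 21.3). Long intergenic non-coding RNA genes had 130 at 32.7 per Mb (27.3 to 38.9), the highest among the types with over 100 members. MicroRNA genes had 17.5 per Mb, genes of small nuclear RNAs 13.5 and of small nucleolar RNAs 11.4. Pseudogenes, most of them copies without a function, had 428 members at 9.17 per Mb (8.32 to 10.1). V segments, annotated as immunoglobulin genes, had 13 members in 4.34 Mb, or 2.99 per Mb. How far unique mapping of reads lowers the values of pseudogenes and V segments was not tested.

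**Figure D2:**
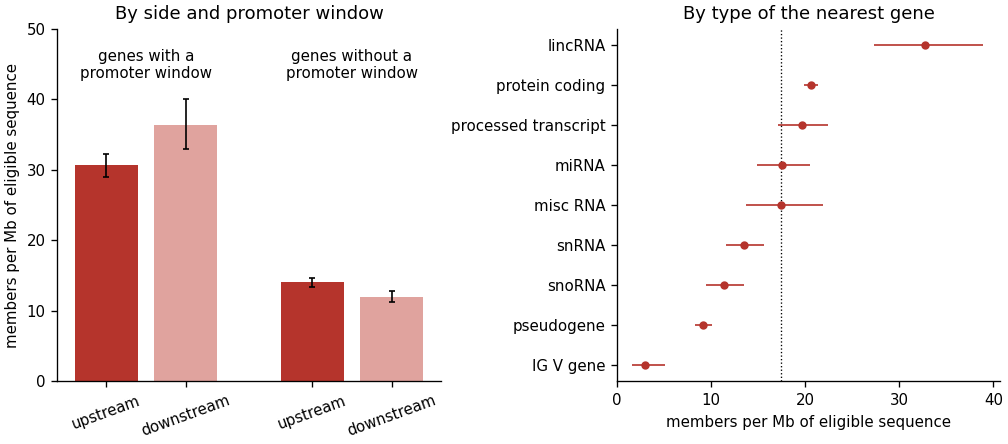
Members per Mb of eligible sequence, left by side of the TSS at genes with and without a promoter window, right by annotated type of the nearest gene, with exact 95% Poisson intervals and a dotted line at 17.4 per Mb for all members. Genes with a promoter window stand at 30.6 upstream and 36.4 downstream, against 14.0 and 12.0 at genes without one.

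Members sat close to other windows. Another window lay within 5 kb of 44.9% of members (exact binomial interval 43.5% to 46.4%), against 30.2% of intergenic windows at 10 to 50 kb, 20.7% of those over 50 kb and 49.4% of intragenic windows at 1 to 10 kb. The median distance to the next window was 6007 bp for members, against 12369 bp for intergenic windows at 10 to 50 kb. All windows of the list counted as neighbours, promoter windows included. By the rule members lie within 10 kb of a TSS, and promoter windows numbered 125.4 per Mb. The differences from intergenic windows farther out are thus partly set by the rule. A peak with several called summits gave 1.96% of members (1.58% to 2.42%), against 1.09% of windows at 10 to 50 kb (0.87% to 1.36%).

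Base composition placed the members between promoters and distal windows. Their mean GC content was 49.1% ± 5.78 (SD over 4431 windows), against 48.3% for intergenic windows at 10 to 50 kb, 46.5% for those over 50 kb, 49.7% for intragenic windows at 1 to 10 kb and 59.3% for promoter windows. The difference was 0.84 ± 0.13 percentage points against 10 to 50 kb (SE clustered over 20 chromosomes, linear fit over all windows, p = 3.5e-06) and -0.61 ± 0.18 against intragenic windows (p = 0.0035), which did not pass with the inner distance at 2 kb (-0.39, p = 0.067). Background tiles, which are the 499624 stretches of 500 bp that tile the same sequence without touching a window, had 42.2%.

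CpG dinucleotides, the sites of DNA methylation, averaged 8.10 per member, against 6.88 per window at 10 to 50 kb and 30.6 per promoter window. The difference of 1.22 ± 0.21 against 10 to 50 kb passed (p = 1.7e-05). Against intragenic windows at the same distance, which averaged 8.17, it was -0.07 ± 0.23 (p = 0.78). CpG island-like windows had at least 50% GC and an observed over expected CpG ratio of at least 0.6. The expected value took C and G counts as equal, which is the strictest case at a given GC content. Island-like members made up 4.94% (4.32% to 5.62%), against 2.08% at 10 to 50 kb (1.76% to 2.43%), 3.20% of intragenic windows at 1 to 10 kb (2.84% to 3.60%) and 60.0% of promoter windows. They were most frequent at 1 to 2 kb from the TSS, where 63 of 719 members (8.76%) were island-like, and made up 3.38% to 5.25% of each step beyond.

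Binding words, short consensus sequences searched on both strands, were compared next to ask which factor families have their consensus in the members. Shares are of windows with at least 1 copy, and a match is a description of sequence, not a bound site. The AP-1 word TGACTCA was in 700 members (15.8%, interval 14.7% to 16.9%), against 7.79% of background tiles. The RUNX word TGTGGTT was in 13.9% of members and 12.4% of tiles, the PU.1 word GAGGAAGT in 5.55% and 3.14%, the CTCF core (CNAGGGGGC or CNAGATGGC) in 4.99% and 3.05%, and the KLF word GGGCGGGG in 6.12% and 1.31%. The GATA word AGATAA and the SOX word AACAAT, both rich in A and T, were less frequent in members (20.0% and 19.7%) than in tiles (28.9% and 31.7%). Tiles are given without a test and have a lower GC content.

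Against intergenic windows at 10 to 50 kb, 2 of 22 words passed (9.09%, adjusted p under 0.05, logistic fit with errors clustered by chromosome, Benjamini-Hochberg over 88 tests). The KLF word was in 6.12% of members and 3.99% of windows at 10 to 50 kb, a log2 odds ratio of 0.65 ± 0.09 (SE, adjusted p = 6.6e-06). The AP-1 word was in 15.8% of members and 16.9% of windows at 10 to 50 kb, a log2 odds ratio of -0.11 ± 0.04 (adjusted p = 0.038). With GC and CpG content as covariates neither passed, and the AP-1 difference also missed the threshold when any 1 of 12 of the 20 chromosomes was left out.

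Against intergenic windows over 50 kb, 6 of 22 words passed (27.3%). More frequent in members were KLF (6.12% against 2.40%, log2 odds ratio 1.40 ± 0.13), the Ets word CCGGAAG (4.15% against 2.47%, 0.78 ± 0.17), AP-1 (15.8% against 13.7%, 0.24 ± 0.05) and RUNX (13.9% against 12.2%, 0.22 ± 0.07). SOX (19.7% against 26.6%, -0.56 ± 0.07) and GATA (20.0% against 22.7%, -0.23 ± 0.08) were less frequent. With GC and CpG content as covariates KLF, AP-1, RUNX and SOX still passed, Ets and GATA did not, the YY1 word AAGATGGCG passed as less frequent (0.56% against 0.77%, -1.52 ± 0.32), and the GATA log2 odds ratio turned to 0.03 (adjusted p = 0.92). RUNX did not pass with the inner limit at 2 kb (log2 odds ratio 0.15, adjusted p = 0.16) or with protein-coding and lincRNA transcripts only (0.19, adjusted p = 0.13), and GATA was also lost when any 1 of 12 chromosomes was left out.

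Against intragenic windows at the same 1 to 10 kb, 2 of 22 words passed (9.09%). KLF was in 6.12% of members and 5.00% of these windows (log2 odds ratio 0.31 ± 0.11, adjusted p = 0.038), and SOX in 19.7% and 17.1% (0.25 ± 0.07, adjusted p = 0.0094). Neither call held throughout. With the covariates KLF was 0.43 ± 0.11 and passed, but with CpG island-like windows left out it was 0.04 (adjusted p = 0.85). KLF also missed the threshold with an outer limit of 5 kb (adjusted p = 0.15) and with only the first window of each overlapping group kept (0.077). The same held with whole windows outside transcripts (0.059) and when any 1 of 10 of the 20 chromosomes was left out. SOX did not pass with the covariates (0.16, adjusted p = 0.17), with an inner limit of 2 kb (0.066), with protein-coding and lincRNA transcripts only (0.051) or without chromosomes 7, 8, 9 and X (0.16). AP-1 was in 15.8% of members and 15.9% of these windows, PU.1 in 5.55% and 5.66%, and CTCF in 4.99% and 4.47%, none of which passed.

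Promoter windows differed from members in 19 of 22 words (86.4%), 12 of them higher in members and 7 lower. AP-1 (15.8% against 7.78%, log2 odds ratio 1.15 ± 0.07), SOX (19.7% against 9.78%, 1.18 ± 0.06), GATA (20.0% against 10.0%, 1.17 ± 0.08) and RUNX (13.9% against 7.29%, 1.04 ± 0.08) were more frequent in members. The words of CpG-rich promoters were less frequent: NRF1 (0.29% against 3.16%, -3.47 ± 0.45), KLF (6.12% against 32.2%, -2.87 ± 0.09), YY1 (0.56% against 3.35%, -2.61 ± 0.25) and Ets (4.15% against 18.2%, -2.36 ± 0.11). CTCF was in 4.99% of members and 8.69% of promoter windows (-0.86 ± 0.10). With GC and CpG content as covariates 2 differences passed, AP-1 higher at 0.43 ± 0.09 and Ets lower at -0.50 ± 0.12.

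**Figure D3:**
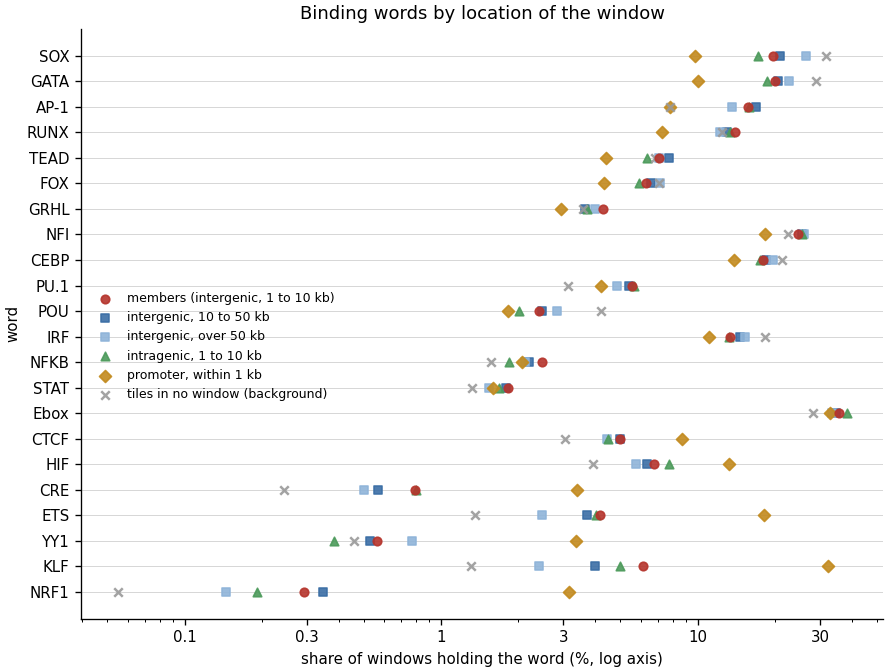
Share of windows holding each of 22 words (log axis), for members, other locations of the list and background tiles. Members and intergenic windows at 10 to 50 kb lie side by side for most words, and members stand far from promoter windows at SOX (19.7% against 9.78%), NRF1 (0.29% against 3.16%) and KLF (6.12% against 32.2%).

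Inside the members, AP-1 copies were more frequent in a broad central part than at the window ends. Per 20 bp there were 45 copies at -10 to 10 bp, 46 at 70 to 90 bp and 20 at 210 to 230 bp. The trait was not particular to members, as the log2 ratio of central over outer copies was 1.13 in intergenic windows at 10 to 50 kb. It was 0.85 in those over 50 kb, 0.76 in intragenic windows at 1 to 10 kb and 0.415 in promoter windows, all without a test. Within 50 bp of the window centre there were 49.7 copies per 1000 members, against 24.4 copies 200 to 250 bp from it, an equal length of sequence, a log2 ratio of 1.03 ± 0.16 (SE clustered by chromosome, adjusted p = 8.5e-05 over 22 words). In all, 4 of 22 words passed (18.2%). RUNX had 36.1 copies per 1000 members near the centre and 26.2 in the outer part (0.46 ± 0.14, adjusted p = 0.036), and the E-box CAGGTG, bound by Snail and E proteins, 114.6 and 89.6 (0.36 ± 0.12, adjusted p = 0.038). SOX had fewer near the centre, 38.4 per 1000 members against 56.9 (-0.57 ± 0.19, adjusted p = 0.038). With 100 to 150 bp as the outer part the AP-1 ratio was 0.41 (adjusted p = 0.13) and did not pass, whereas it passed with each chromosome left out. The RUNX call was lost when any 1 of 8 chromosomes was left out, the E-box call with 13 and the SOX call with 14.

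**Figure D4:**
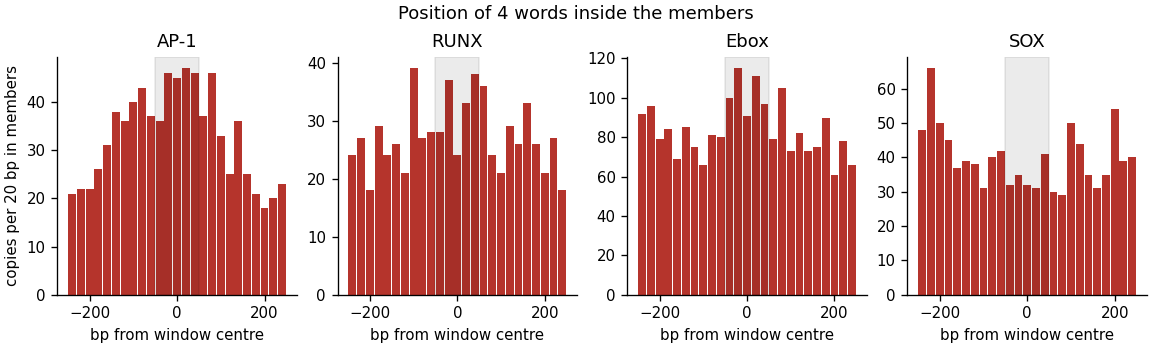
Copies of AP-1, RUNX, E-box and SOX words per 20 bp along the 4431 members, with the central part within 50 bp of the centre shaded. AP-1 has 49.7 copies per 1000 members in the central part against 24.4 at 200 to 250 bp, and SOX 38.4 against 56.9.

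Members differed among themselves in their words. Of the 1817 members at genes with a promoter window 17.2% held AP-1 and 6.71% PU.1, against 14.8% and 4.74% of the 2614 at genes without one. Island-like members held the KLF word in 39.3%, Ets in 19.6% and AP-1 in 4.57%, against 4.39%, 3.35% and 16.4% of the other members. The KLF and Ets words contain a CpG and the AP-1 word does not. These shares are therefore not independent of the GC and CpG content that set the island-like members. By distance, RUNX was in 17.2% of members at 1 to 2 kb and in 11.0% to 15.5% of each step beyond, and PU.1 in 8.84% at 9 to 10 kb and 4.49% to 7.60% of each step before. These splits are descriptions without a test.

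The members had 3560 nearest genes, of which 2926 had 1 member, 459 had 2 and the rest had more. The 10 genes with most members held between 5 and 9 each. Csrnp1, which encodes a cysteine- and serine-rich nuclear protein, had 9, of which 7 lay upstream between 1016 and 7395 bp and 2 downstream at 6380 and 7662 bp. It had no window within 1 kb of a TSS. The Csrnp1 windows at 5989 and 6613 bp upstream had GC contents of 68.0% and 74.8% and were island-like, and the window at 5989 bp carries the AP-1 copy printed above.

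Mir23a, the gene of a microRNA, had 7 members, all upstream of its annotated start between 1529 and 9839 bp. AP-1 was in 2 of them, CTCF in 1, and GC content reached 73.2%. Whether transcription begins at that annotated start was not examined. Lsm4, whose product belongs to complexes of RNA splicing and decay, had 7, all downstream between 1468 and 9970 bp, with AP-1 in 3. The 3 members upstream of Jund, a Jun gene of the AP-1 family, lay next to those of Lsm4, so that chr8 held 10 members between positions 73202782 and 73219523 of mm9. Adamtsl4, which encodes a protein of the extracellular matrix, had 6 without an AP-1, RUNX, PU.1, CTCF or NF-kB word.

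Zfp36 encodes tristetraprolin, which destabilizes messenger RNAs of cytokines. Its 5 members lay at 1976, 2733, 2966 and 3835 bp upstream and 2791 bp downstream, with AP-1 in 2 and NF-kB in the overlapping pair. Tnfrsf1b, a receptor of tumor necrosis factor, had 5 upstream members between 3485 and 9507 bp with AP-1 in 2. Sash3, a lymphocyte adaptor gene, had 5 upstream between 3101 and 8865 bp without AP-1, and Spty2d1 had 5 upstream between 1362 and 7477 bp. The remaining 2 genes, Gm17422 with 6 and Gm17395 with 5 members, are annotated as long intergenic non-coding RNAs.

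**Figure D5:**
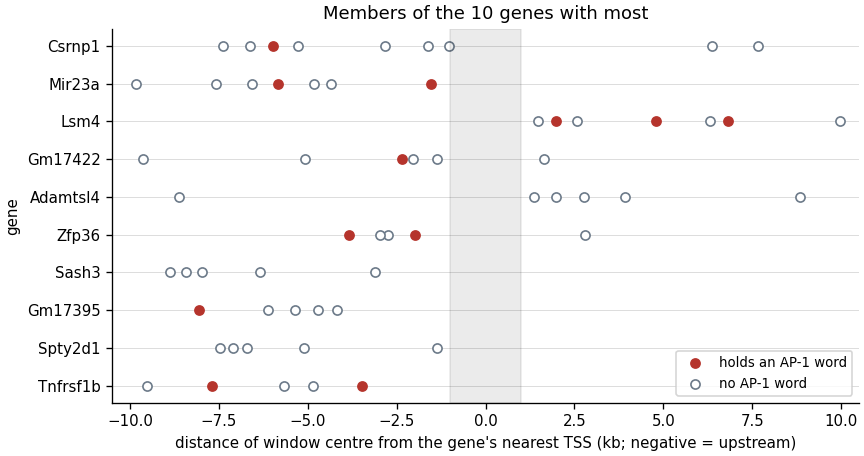
Distance from the nearest TSS (kb, negative upstream) of every member of the 10 genes with most, filled where the window holds an AP-1 word and with the 1 kb on either side of the TSS shaded. Csrnp1 has 9 members on both sides, Mir23a 7 upstream and Lsm4 7 downstream.

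Chromosomes 7, 8, 9 and X held 1482 members (33.4%). On these the list kept between 41.5% and 51.8% of the peaks called, by the running numbers in the peak names, against 23.6% to 26.5% on the other 16. Members numbered 38.5 per Mb on chromosome 8, 32.0 on 9 and 22.3 on 7, 12.2 on X and 15.6 on the other 16 together. Of the 10 genes above, Csrnp1, Mir23a, Lsm4, Zfp36, Sash3 and Spty2d1 lie on these chromosomes, and the part of the kept share in their counts was not tested.

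Genes of AP-1 factors had more members per Mb than protein-coding genes as a whole. Of 22350 protein-coding genes, 10.9% had at least 1 member, with a median of 0 and 20.6 members per Mb. Of 14 AP-1 factor genes, 8 had one (57.1%, interval 28.9% to 82.3%), with a median of 1 and 16 members at 153.5 per Mb (interval 87.7 to 249.3). Without chromosomes 7, 8, 9 and X, 5 of 11 had one, with 8 members at 100.7 per Mb (43.5 to 198.4), against 106.9 for housekeeping genes and 18.1 per Mb over protein-coding genes. Most AP-1 factor and housekeeping genes had a promoter window. Protein-coding genes with a promoter window had 31.9 members per Mb, against 14.6 for those without. The lists were not matched for this. They were chosen with earlier results known, so the comparison is a description.

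Junb had 4 members, at 1349, 2455 and 3177 bp upstream and 2228 bp downstream of the TSS. The downstream Junb window is island-like with 69.8% GC and holds the NF-kB copy shown, and the one at 2455 bp holds AP-1. Jund had 3 upstream, at 2364, 2861 and 4020 bp. Fos, the partner of Jun proteins in AP-1, had 3 upstream, at 1408, 5056 and 6013 bp, the closest of them island-like. Bach1, a repressor of the heme and oxidative stress response, had an overlapping pair at 9443 and 9764 bp, and Fosb, Atf3, Maff and Bach2 had 1 each.

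Lists of leukocyte genes had members, as had those of epithelial genes. Genes expressed in myeloid cells had a member in 5 of 20 cases (11 members, 74.2 per Mb, interval 37.1 to 132.8), but without chromosomes 7, 8, 9 and X in 2 of 14 (4 members, 37.7 per Mb). They included Cebpa with 4, a factor of granulocyte differentiation, Spi1 and Cx3cr1 with 2 each, and Tyrobp with 1. T and NK cell genes had a member in 5 of 20 (9 members, 58.4 per Mb, 26.7 to 110.8), B cell genes in 4 of 12 (6 members, 69.5 per Mb, 25.5 to 151.2) and pan-leukocyte genes in 4 of 20 (4 members, 32.4 per Mb, 8.83 to 83.0). Cd2, an adhesion receptor of T and NK cells, had 4 members, at 5500 and 9358 bp downstream and 5957 and 9523 bp upstream.

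Luminal epithelial genes had a member in 4 of 24 cases (5 members, 22.8 per Mb, 7.41 to 53.2), namely Cldn4 with 2 and Krt8, a keratin, Elf5, a factor of alveolar cells, and Muc1, a mucin, with 1 each. Basal and myoepithelial genes had one in 2 of 12, fibroblast genes in 3 of 14, endothelial genes in 2 of 12 and hypoxia-responsive genes in 3 of 22. The intervals of these lists include the 20.6 per Mb of all protein-coding genes.

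Lists of other tissues gave values beside these. Liver genes had 1 member in 15 genes and neuron genes 2 in 14. Muscle genes had 5 in 13 at 69.1 per Mb (22.4 to 161.2), 4 of them at Myod1 on chromosome 7, the master factor of skeletal muscle, and 0 in 7 genes without chromosomes 7, 8, 9 and X. The Myod1 members lay at 3847 and 5328 bp upstream and 2623 and 6171 bp downstream. Housekeeping genes had a member in 3 of 16 at 92.7 per Mb (40.0 to 182.6), among them Actb with 4 upstream between 1430 and 7279 bp, and without those chromosomes in 2 of 12 at 106.9 per Mb. The value per Mb of housekeeping genes was above those of the lists of leukocyte genes, with intervals that overlap.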

How the data were processed

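The deposited file gives, for unit other, the start and end of 50000 windows and no measured value. By the methods and the submitters' processing notes, the authors trimmed adapters, aligned pairs to mm9 with Bowtie2 2.1.0, dropped duplicates (Picard 1.79), low-quality and mitochondrial reads, called summits on the aggregated cells with MACS2 at q 0.05, widened each to 500 bp and kept those with the lowest q. Ranking on q favours tall peaks. With 1 pooled list and no counts there are no replicates, and p-values measure the spread over chromosomes.

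Windows were placed by their centre on the NCBIM37 genome (mm9) with GENCODE vM1. Eligible sequence counted bases other than N outside transcripts, with no mask for repeats or for sequence where reads do not map uniquely. The 22 words were searched on both strands of 50000 windows and tiles, and tested by logistic fits. GC and CpG content used linear fits and density quasi-Poisson fits with chromosome terms. Fits were tested on simulated data. Python 3.11.15, numpy 2.4.6, scipy 1.17.1, pandas 2.3.3, statsmodels 0.14.6 and matplotlib 3.10.9 were used. Members, words, lists and tests were chosen with earlier results of these data known, and the C/EBP word (TTGCNNAA) was corrected after a first run. Of 229 listed genes 228 matched, 3 by an older symbol. Named genes are the 10 with most members, listed genes with a member and those beside a printed sequence, some of which are not reported here. For the forkhead word no copy of the chosen window lay in the 150 bases, so none is shown. Alternatives changed the distance limits, transcripts, overlaps, chromosomes, covariates and outer part.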

Additional observations from a re-analysis of the deposited data

How the results depend on the processing

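The higher density at genes with a promoter window, and the GC and CpG differences from intergenic windows at 10 to 50 kb, over 50 kb and from promoter windows, kept direction and side of the threshold in all alternatives run. The side effect (log2 0.25) fell to 0.10 with protein-coding and lincRNA transcripts only and 0.14 with protein-coding nearest genes, passing under neither. It was -0.25 within genes with a promoter window and 0.22 within genes without one. The GC difference from intragenic windows was -0.39 with an inner distance of 2 kb. Members numbered 2288 with an outer distance of 5 kb and 2949 without chromosomes 7, 8, 9 and X.

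Word counts near the threshold moved most. Words lower than at 10 to 50 kb (1) numbered 0 with the 2 kb and 5 kb limits, the transcript choice and only the first window of each overlapping group. They also numbered 0 with whole windows outside transcripts, covariates and islands left out. Words lower than over 50 kb (2) numbered 1 with both limits, first windows of overlapping groups, whole windows, without the 4 chromosomes and without islands. Words higher than over 50 kb (4) numbered 8 with the transcript choice. Words higher than in intragenic windows (2) numbered 1 with the 5 kb limit, first windows of overlapping groups, whole windows, without the 4 chromosomes, with covariates and without islands. Words higher than in promoters (12) numbered 1 with covariates and 4 without islands, and words lower (7) numbered 1 with covariates. Central words (3) numbered 1 with the 5 kb limit and with 100 to 150 bp as the outer part. Outer words (1) numbered 0 under both, with the transcript choice, without the 4 chromosomes and without islands.

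With covariates the log2 odds ratio turned for GATA over 50 kb (0.028), and against promoters for CTCF (0.25), C/EBP (-0.13), IRF (-0.21), NFI (-0.012) and HIF (0.033), none passing. Without islands it turned for PU.1 (-0.0093), IRF (-0.048) and E-box (-0.15), none passing. Leaving out 1 chromosome gave 0 to 1 words lower than at 10 to 50 kb, 1 to 3 lower than over 50 kb, 1 to 2 higher and 0 to 1 lower than in intragenic windows, 9 to 12 higher than in promoters, 1 to 5 central and 0 to 1 outer. Islands left out, protein-coding nearest genes, the promoter split and gene lists without the 4 chromosomes were added after the data were seen. The causes were not tested. No paired analysis was possible because the result comes from 1 pooled list. Depth per window cannot be read from the list.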

Other observations

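Constant-region genes of antigen receptors had few bases of eligible sequence and many members. The annotation type of immunoglobulin constant genes, which here also holds a T cell receptor gene, was nearest to 13 members in 0.094 Mb, or 138.3 per Mb (exact 95% Poisson interval 73.7 to 236.6). On chromosome 12, Gm900 had 4 members downstream between 7738 and 9950 bp, AI324046 had 3 and Ighg1 had 2. Trac, the constant gene of the T cell receptor alpha chain, had 3 downstream at 4617, 6914 and 7448 bp, of which the window at 6914 bp holds both a RUNX and a cyclic AMP response word. None of these genes had a window within 1 kb of its annotated start, and whether transcription begins there was not examined. They were picked after their values were seen, and no test was made.

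By the orientation of the flanking genes, gaps between divergent genes held 18.2 members per Mb (17.2 to 19.2), tandem gaps 16.8 (16.1 to 17.4) and convergent gaps 18.6 (17.3 to 19.9), given as values.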
